A study of Mus musculus with 6 samples.

Results

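The 50 genes described here encode ribosome biogenesis factors and nucleolar proteins, and their mRNA levels were compared between Ybx1 conditional knockout (cKO) and control (Ctrl) mouse cortices at E18.5. The members were chosen by gene symbol, as a list of factors for rRNA transcription, rRNA processing and subunit assembly. The rule uses the symbols alone, though earlier results of these data were known when the list was proposed. All 50 were found among the 17348 genes of the deposited expression table and all 50 were among the 13570 genes with enough counts to be tested.

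RNA-seq was done on 3 Ctrl and 3 cKO cortices. The cKO embryos carried Nestin-Cre,Ybx1 fl/fl, and the control animals are Ybx1 fl/fl without Cre in the study's description of its mice, while the sample labels name them WT and the tissue brain. Both groups were dissected at E18.5, and Nestin-Cre deletes the floxed exons of Ybx1, which encodes a cold shock protein that binds m5C-modified mRNA, in neural progenitors and their progeny. Each library is a whole cortex with its mixture of progenitors, neurons, glia and vessels, so fewer cells of a type and less RNA per cell cannot be told apart.

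Ribosomes are made in the nucleolus, where RNA polymerase I transcribes the rDNA repeats into a long precursor that is modified by small nucleolar ribonucleoproteins (snoRNPs), cut and folded. The small subunit (SSU) processome forms on the first part of the precursor and gives rise to the pre-40S particle, and a separate series of factors builds the pre-60S particle before both are exported to the cytoplasm. Dividing neural progenitors depend on this supply, and mutations in several of these factors cause inherited disorders of ribosome production.

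In the comparison of the groups, none of the 50 members passed an adjusted p of 0.05 (quasi-likelihood test of edgeR, p-values adjusted by Benjamini-Hochberg over all genes), beside 0.0737% of all genes tested. The smallest adjusted p among the members was 0.727. At an unadjusted p under 0.05, 0 members were higher in cKO, beside 3.14% of all genes, and 1 member was lower, the SSU processome factor Utp3, beside 3.49% of all genes. By DESeq2 the count at an adjusted p under 0.05 was also 0, beside 0.722% of all genes. The log2 fold changes ran from -0.41 for Imp3 to 0.25 for Ltv1, with 18 members above 0 and 32 below 0 and a median of -0.05, beside a median of 0.00 over all genes tested. The 95% interval of the fold change lay within 2-fold either way for 50 of the 50 members, beside 91% of all genes, and within 1.5-fold either way for 42 of them, beside 62.2% of all genes. A count of 0 called genes at 3 libraries a group does not show equal levels, and these intervals give the sizes of change that the data leave room for.

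Library totals were between 15091951 and 16885451 estimated counts, at which 3 counts equal 0.176 to 0.206 CPM (counts scaled to the same total in each library), and the least abundant value of any member in any library was 120 estimated counts or 8.22 CPM. Intervals cover the spread between these 6 samples, and with 3 against 3 an exact permutation test of a single gene cannot go below a p of 0.1. As a check of the labels, Ybx1 was at 956 to 1297 CPM in Ctrl and 24.0 to 24.9 CPM in cKO. The Y-linked transcripts Eif2s3y and Ddx3y were at 41.8 to 109 CPM in Ctrl and at 1 count or fewer in every cKO library, so sex and genotype cannot be told apart. This touches the X-linked members Dkc1 and Utp14a directly. Of the markers of dividing cells, 12 of 12 were tested and 11 of 12 had a log2 fold change below 0. At an unadjusted p under 0.05 there were 0 of 12, beside 3.14% of all genes higher and 3.49% lower. Their summed level was 691 to 789.7 CPM in Ctrl and 667 to 717 CPM in cKO. The 10 markers of excitatory neurons, the main cells of the cortex, were all detected, with a summed level of 4610.2 to 4717 CPM in Ctrl and 3947 to 4375 CPM in cKO. The summed level of 5 choroid plexus markers was at most 1.86 CPM in any library. The part of these cell types in the members' values was not tested.

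The promoters of the members were searched for the E-box CACGTG, the palindromic site bound by Myc-family and related factors, which reads the same on both strands. RefSeq (GRCm38.p6) gave a promoter of 300 bases, from 250 before the annotated start, for 44 members, and none for Fbl, Gnl2, Rrp12, Npm1, Bop1 or Rrs1. An E-box was present in 13 of the 44, or 29.5%. The share was 10.4% of the 13719 genes of the expression table with a promoter entry and 8.09% of all 27025 genes with one. The 13 were Imp4, Ltv1, Mdn1, Nle1, Nop2, Pes1, Rrn3, Sdad1, Tsr1, Utp18, Utp20, Utp4 and Wdr43. Shown are 60 bases before and 50 bases from the start for Ltv1, Rrn3, Tsr1 and Utp20. These are the first 4 with an E-box among the 6 members of smallest unadjusted p on the higher side in cKO, and none of the 6 on the lower side had one. Both sets of 6 were ranked by p in these same data, and a relation of the E-box to direction was not tested. Each runs 5′ to 3′ on the strand of the gene, and capitals mark the E-box.
Ltv1 (chr10:13193088-13193197, minus strand): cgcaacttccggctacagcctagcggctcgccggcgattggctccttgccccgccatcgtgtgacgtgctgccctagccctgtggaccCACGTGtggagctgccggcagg
Rrn3 (chr16:13780639-13780748, plus strand): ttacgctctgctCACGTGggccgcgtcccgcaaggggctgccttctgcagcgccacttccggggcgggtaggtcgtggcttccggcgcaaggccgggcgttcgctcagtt
Tsr1 (chr11:74898020-74898129, plus strand): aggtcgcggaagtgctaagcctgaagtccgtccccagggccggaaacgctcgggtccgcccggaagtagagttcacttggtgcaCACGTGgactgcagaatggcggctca
Utp20 (chr10:88826765-88826874, minus strand): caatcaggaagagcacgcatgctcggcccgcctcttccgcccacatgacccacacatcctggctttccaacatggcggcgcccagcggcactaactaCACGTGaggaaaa
The first base of the E-box lay at position 29 of Ltv1, 25 of Tsr1 and 38 of Utp20, counted from 1 at the annotated start, and at -48 of Rrn3, which has a further E-box at -215 outside the window shown. The median log2 fold change was -0.01 for the 13 members with an E-box (range -0.22 to 0.25) and -0.05 for the 31 whose promoter lacks one (range -0.41 to 0.20), and 0 and 1 of them, respectively, had an unadjusted p under 0.05. Transcript lengths were 1354 to 17672 bases in the 13 and 431 to 5760 bases in the 31, and length went with the deviation of Ctrl 2 described below. The difference between the 13 and the 31 was not tested. A match is a description of these letters and not of a bound site. Of the genes for factors that bind this site, Myc was at 21.4, 22.1 and 19.3 CPM in the 3 Ctrl libraries and 18.1, 18.3 and 18.45 CPM in the 3 cKO libraries, with a log2 fold change of -0.20 (95% interval -0.47 to 0.08, edgeR adjusted p = 0.823). Mycn had a log2 fold change of -0.12 (95% interval -0.42 to 0.19).

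Levels between members are compared per length, in the TPM that the authors deposited (levels divided by transcript length and scaled to the same total in each library). The mean level in Ctrl ran from 10.8 TPM for Utp20 to 875 TPM for Npm1, with a median over the members of 45.5 TPM. Npm1 encodes nucleophosmin, the abundant nucleolar chaperone, and stood above every other member in every library, at 868, 771 and 985 TPM in Ctrl and 989.6, 935 and 985 TPM in cKO. Ncl, which encodes nucleolin, followed at 207 ± 37.4 TPM in Ctrl and 234 ± 16.6 TPM in cKO (mean ± SD, n = 3 in each). Fbl, Nop56, Ubtf and Nop10 came next, with Ctrl means of 191, 182, 173 and 152 TPM, and the ranges of Ncl, Fbl, Nop56 and Ubtf over the Ctrl libraries overlapped, so their order is not resolved. The lowest levels included those of Utp20, Nle1 (17.8 ± 6.04 TPM in Ctrl) and the polymerase subunit Polr1a (18.1 ± 3.17 TPM in Ctrl). The plot of levels by library shows all members, ordered by the mean level over the libraries of both groups and not by the Ctrl mean.

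**Figure D1:**
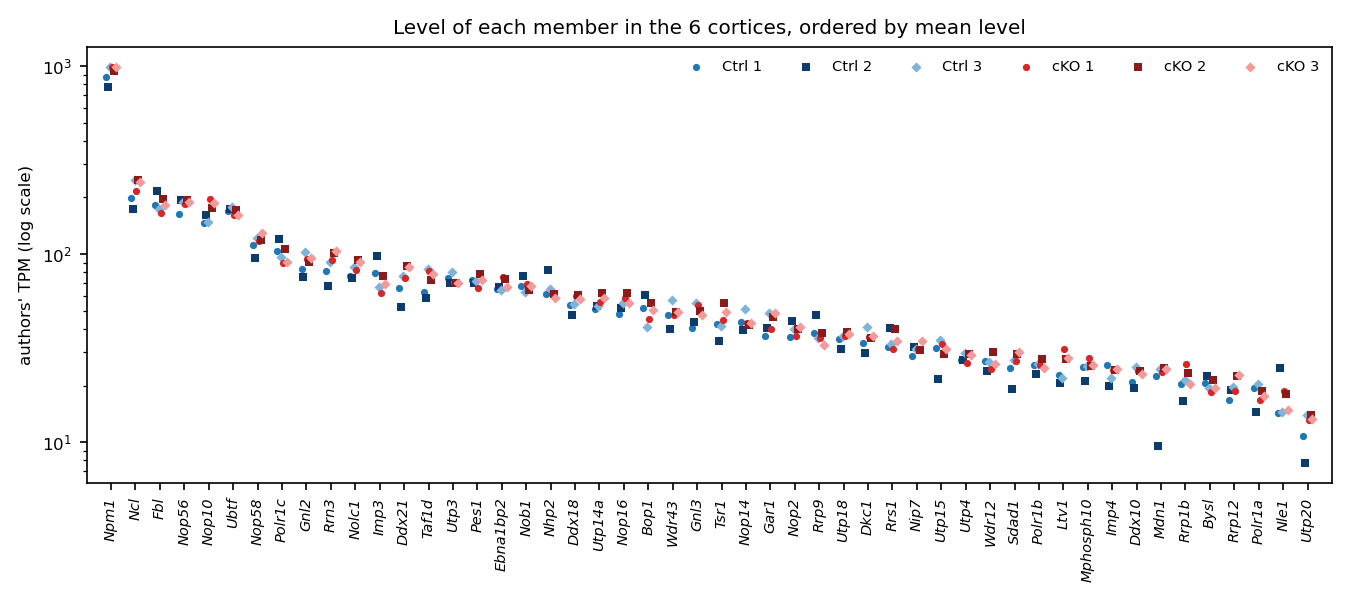
Level of each of the 50 members in TPM (vertical axis, log scale) in the 3 Ctrl libraries (blue) and 3 cKO libraries (red), ordered by mean level, with 1 marker a library. Npm1 sits apart at 771 TPM or more, every other member is at 248 TPM or less, and Mdn1 and Nle1 show Ctrl 2 away from the other 5 libraries.

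The RNA polymerase I machinery was measured by 6 members, of which 4 had a log2 fold change below 0, with a group median of -0.11, and none passed the test. Ubtf, the HMG-box factor that keeps rDNA repeats open for transcription, was at 245, 285 and 248 CPM in the Ctrl libraries and at 219, 235 and 219 CPM in the cKO libraries. Every cKO value lay below every Ctrl value, and the log2 fold change was -0.21 (95% interval -0.46 to 0.04, adjusted p = 0.796). Polr1a, the largest catalytic subunit, was at 47.0, 37.3 and 49.3 CPM in Ctrl and 37.3, 42.6 and 39.6 CPM in cKO. Its groups overlapped because Ctrl 2 was low, and its log2 fold change was -0.16 (95% interval -0.46 to 0.14) with all libraries and -0.27 (-0.48 to -0.07, unadjusted p = 0.0137, adjusted p = 0.268) without Ctrl 2. Polr1c, a subunit shared with RNA polymerase III, was at 47.3, 63.3 and 42.3 CPM in Ctrl and 37.6, 45.1 and 38.7 CPM in cKO. Here Ctrl 2 was the highest of the 6 libraries, and the log2 fold change of -0.34 (-0.70 to 0.03) became -0.15 (-0.38 to 0.08) without it. Rrn3, also known as TIF-IA, which brings the polymerase to the promoter in a growth-dependent way, had the reverse sign. It was at 121, 116 and 131 CPM in Ctrl and 129, 142 and 145 CPM in cKO, with overlapping groups and a log2 fold change of 0.18 (-0.06 to 0.41, adjusted p = 0.819). Polr1b, the second catalytic subunit, and Taf1d, a subunit of the promoter selectivity factor, had log2 fold changes of -0.07 (-0.30 to 0.17) and 0.01 (-0.28 to 0.29).

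The 3 nucleolar chaperones and scaffolds had log2 fold changes near 0. Npm1 was at 436, 446 and 476 CPM in Ctrl and 460.5, 438 and 462 CPM in cKO, a log2 fold change of 0.00 (95% interval -0.23 to 0.23). Ncl was at 520.5, 517 and 623 CPM in Ctrl and 529, 607 and 589 CPM in cKO, a log2 fold change of 0.06 (-0.22 to 0.33). The groups overlapped fully for both, and Nolc1, a scaffold that escorts snoRNPs into the nucleolus, had a log2 fold change of 0.03 (-0.21 to 0.26).

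The box C/D snoRNPs place 2′-O-methyl groups on rRNA, and 3 of the 4 members of this group had a log2 fold change below 0. Fbl encodes fibrillarin, the methyltransferase itself, and was at 72.5, 99.1 and 67.2 CPM in Ctrl and 60.7, 73.0 and 67.9 CPM in cKO. Only Ctrl 2 stood clear of the cKO values, and the log2 fold change was -0.25 (-0.60 to 0.11) with it and -0.06 without it. Rrp9, the protein specific to the U3 snoRNP, which guides the first cuts of the precursor, was likewise highest in Ctrl 2, at 21.3, 30.6 and 19.3 CPM in Ctrl and 18.6, 19.9 and 17.2 CPM in cKO. Ctrl 3 lay among the cKO values, and the log2 fold change was -0.36 (-0.77 to 0.05, adjusted p = 0.795) and -0.13 (-0.39 to 0.13) without Ctrl 2. The core scaffold protein Nop56 was at 129, 177 and 146 CPM in Ctrl and 139, 146 and 142 CPM in cKO, so the cKO values lay inside the range of the controls. Its log2 fold change was -0.08 (-0.38 to 0.21), and that of its partner Nop58 was 0.01 (-0.22 to 0.23).

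The box H/ACA snoRNPs, which convert uridines of rRNA to pseudouridine, were covered by all 4 of their core proteins. Dkc1 encodes dyskerin, the pseudouridine synthase, and was at 38.2, 39.0 and 45.2 CPM in Ctrl and 38.5, 38.5 and 38.8 CPM in cKO. The cKO values sat at the lower end of the control range, with a log2 fold change of -0.08 (-0.33 to 0.17). Nhp2, an RNA-binding core protein, was lower in all 3 cKO libraries than in any Ctrl library, at 19.6, 30.7 and 20.0 CPM in Ctrl and 18.2, 18.3 and 17.4 CPM in cKO. Its log2 fold change was -0.38 (-0.80 to 0.03, adjusted p = 0.789), and -0.14 without Ctrl 2. Nop10, the smallest of the core proteins, went the other way, at 28.7, 37.8 and 28.0 CPM in Ctrl and 35.5, 32.2 and 34.8 CPM in cKO. Its groups overlapped through Ctrl 2 alone, and the log2 fold change of 0.12 (-0.20 to 0.43) was 0.27 (0.06 to 0.48, unadjusted p = 0.0175, adjusted p = 0.291) without that library. Gar1 completed the group at -0.05 (-0.39 to 0.29). The 4 core proteins of one particle therefore spanned log2 fold changes of -0.38 to 0.12, none of which passed the test.

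The SSU processome, the large particle that matures the small subunit rRNA, was measured by 12 members, of which 10 had a log2 fold change below 0, with a median of -0.04. Utp3, also called SAS10, was at 45.1, 48.7 and 46.5 CPM in Ctrl and 39.9, 39.8 and 39.7 CPM in cKO. Its 3 cKO libraries were almost identical and lay below all 3 Ctrl libraries, with a log2 fold change of -0.23 (95% interval -0.46 to -0.01, unadjusted p = 0.0408, adjusted p = 0.727). Nop14, a core component of the same particle, was at 47.5, 49.2 and 53.8 CPM in Ctrl and 43.6, 42.7 and 43.8 CPM in cKO. The groups did not overlap, and the log2 fold change was -0.21 (-0.44 to 0.02, adjusted p = 0.792). These members are ones in which Ctrl 2 did not stand apart, and their log2 fold changes were -0.20 and -0.22 without that library. Imp3, which with Imp4 and Mphosph10 forms a complex on the U3 snoRNA, had the lowest log2 fold change of all members. It was at 21.3, 30.7 and 17.4 CPM in Ctrl and 15.5, 19.2 and 17.6 CPM in cKO, with overlapping groups and a log2 fold change of -0.41 (-0.88 to 0.06, adjusted p = 0.795) that was -0.15 without Ctrl 2. Imp4 and Mphosph10, its partners, were at -0.04 (-0.33 to 0.24) and 0.00 (-0.26 to 0.26). Utp20, a very large scaffold protein, was at 41.8, 34.1 and 52.0 CPM in Ctrl and 47.2, 50.8 and 48.1 CPM in cKO, a log2 fold change of 0.19 (-0.15 to 0.54), with the cKO values inside the control range. Wdr43, Utp4 and Utp15, which belong to the first subcomplex to join the precursor, had log2 fold changes of -0.12, -0.14 and -0.04. Utp18, the helicase Ddx10 and the X-linked Utp14a were at -0.01, -0.01 and 0.05.

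Maturation of the pre-40S particle and its export were measured by 5 members with a median log2 fold change of 0.06. Ltv1, a factor that must leave the particle before translation can begin, was at 15.7, 16.2 and 14.6 CPM in Ctrl and 19.8, 17.9 and 17.7 CPM in cKO. Every cKO value lay above every Ctrl value, the only such member, with a log2 fold change of 0.25 (-0.03 to 0.54, unadjusted p = 0.0757, adjusted p = 0.795) that was 0.29 (0.02 to 0.55) without Ctrl 2. Tsr1, a GTPase-like factor of the late pre-40S particle, was at 59.9, 55.0 and 56.2 CPM in Ctrl and 58.2, 72.1 and 64.6 CPM in cKO, a log2 fold change of 0.19 (-0.07 to 0.45), with cKO 1 inside the control range. Nob1, the endonuclease that makes the final cut of the small subunit rRNA, Bysl and the export factor Rrp12 had log2 fold changes of -0.21 (-0.54 to 0.12), -0.23 (-0.55 to 0.09) and 0.06 (-0.24 to 0.36). Without Ctrl 2 those of Nob1 and Bysl were -0.04 and -0.10.

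The largest group, the 16 factors of pre-60S assembly, had 6 members above 0 and 10 below 0, a median log2 fold change of -0.04, and no member at an unadjusted p under 0.05. Nop2, an m5C methyltransferase of the large subunit rRNA, was at 38.4, 53.3 and 40.8 CPM in Ctrl and 35.8, 39.6 and 40.3 CPM in cKO. Ctrl 2 was the only library well apart, and the log2 fold change was -0.20 (-0.52 to 0.13) with it and -0.04 without it. Pes1, which with Bop1 and Wdr12 forms the PeBoW complex, was at 86.6, 95.6 and 82.3 CPM in Ctrl and 73.1, 87.4 and 80.2 CPM in cKO, with overlapping groups and a log2 fold change of -0.14 (-0.39 to 0.12). Bop1 and Wdr12 were at -0.20 (-0.63 to 0.24) and 0.04 (-0.20 to 0.28). On the higher side were the RNA helicase Ddx21 and Sdad1, a nucleolar factor of subunit export. Ddx21 was at 133, 121 and 149 CPM in Ctrl and 140.2, 163 and 160.1 CPM in cKO, a log2 fold change of 0.20 (-0.07 to 0.47, adjusted p = 0.816). Sdad1 was at 53.6, 46.7 and 56.5 CPM in Ctrl and 53.9, 58.9 and 60.4 CPM in cKO, a log2 fold change of 0.14 (-0.11 to 0.40). Both overlapped between the groups through a single pair of libraries, Ctrl 3 and cKO 1. The GTPases Gnl3 and Gnl2 and the helicase Ddx18 were at -0.03, -0.05 and 0.05, and Nip7, Ebna1bp2, Rrs1, Nop16 and Rrp1b lay between -0.16 and 0.12. Nle1 and Mdn1, an adaptor and the giant AAA ATPase that it docks on the pre-60S particle, had the widest intervals of this group, -0.86 to 0.42 and -0.32 to 0.82.

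**Figure D2:**
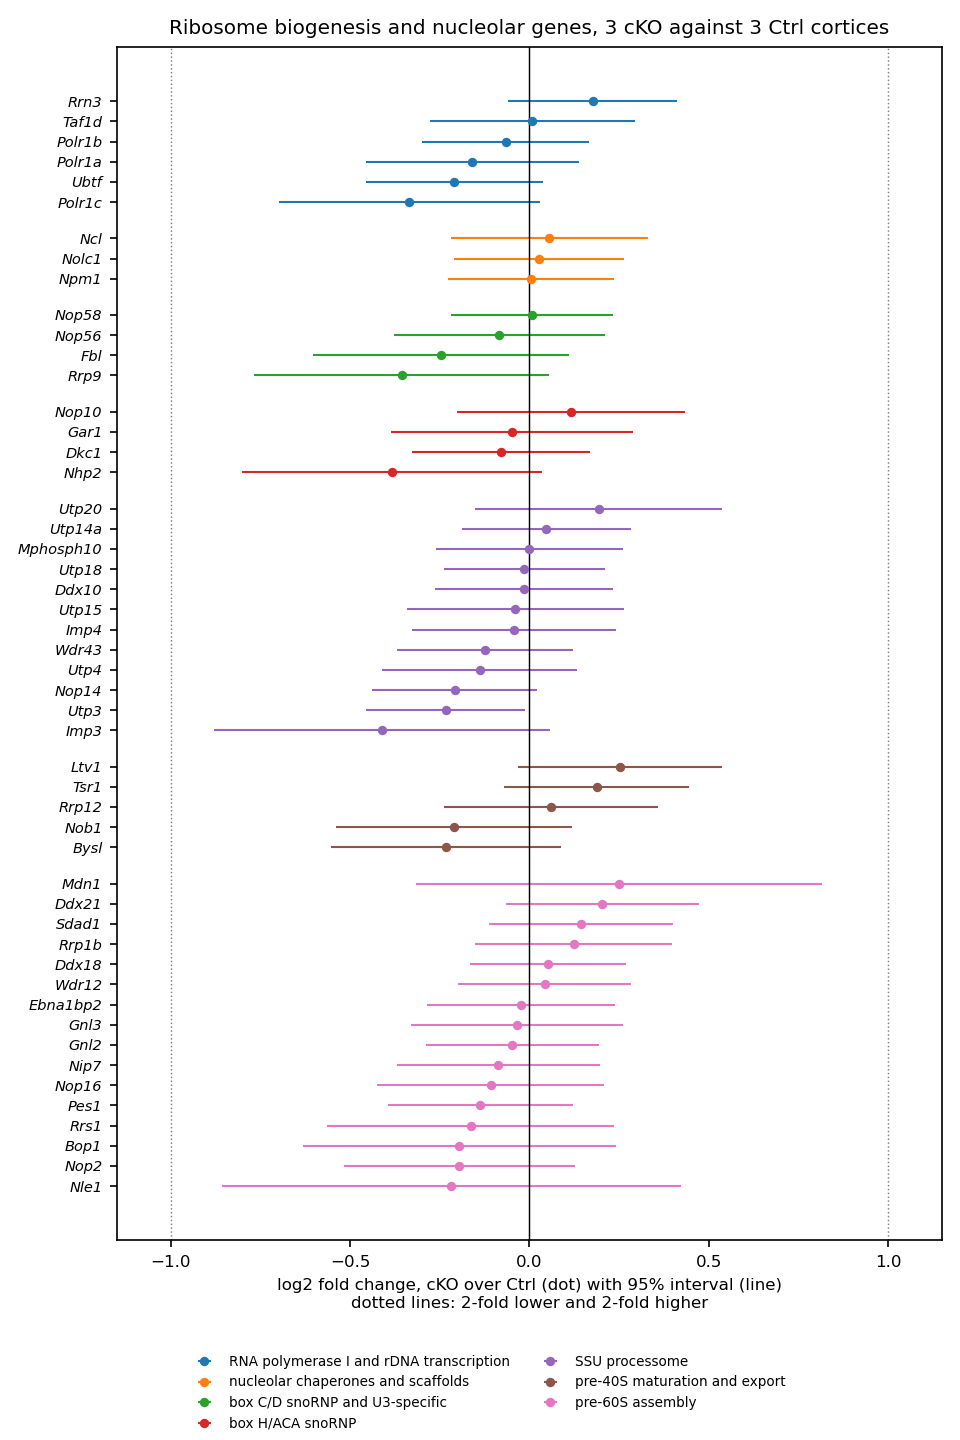
Log2 fold change of each of the 50 members (horizontal axis, cKO over Ctrl, 3 against 3) with its 95% interval, grouped by role and coloured as in the legend. The dots run from -0.41 to 0.25, only the interval of Utp3 leaves 0 out, and no interval reaches the dotted lines at a 2-fold change.

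Counted over all roles, 5 members had groups that did not overlap. Of these, 4 were lower in cKO (Utp3, Nhp2, Nop14 and Ubtf), where 6.93% of all genes tested were of this kind, and 1 was higher (Ltv1), where 7.35% of all genes were. The shares of the members, 4 and 1 of 50, are near these backgrounds and are no result about the members. The plot of the members with the smallest p shows their values library by library.

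**Figure D3:**
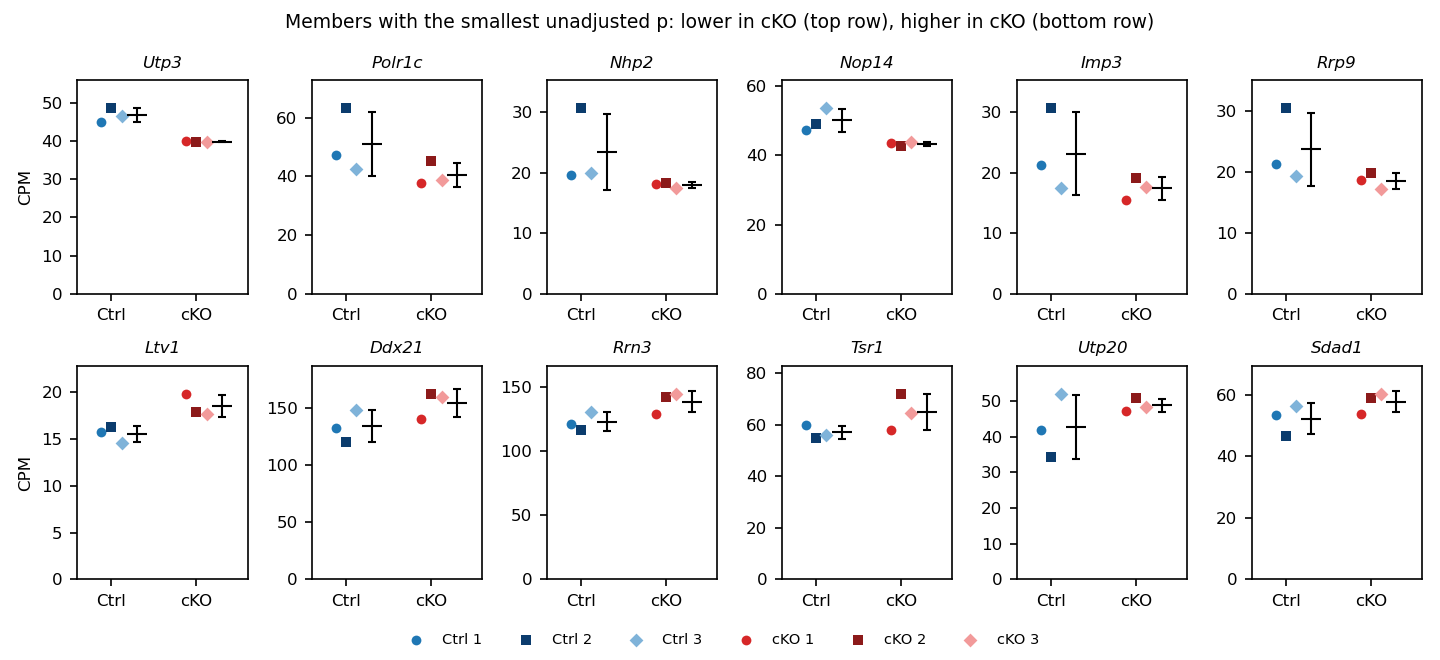
CPM (vertical axes, starting at 0) of the 6 members lower in cKO (top row) and the 6 higher in cKO (bottom row) with the smallest unadjusted p, 1 marker a library, with the group mean and SD (n = 3) in black. Utp3, Nhp2, Nop14 and Ltv1 show groups that do not overlap, and Ctrl 2 (square) is the highest Ctrl library for Utp3, Polr1c, Nhp2, Imp3 and Rrp9 and the lowest for Ddx21, Rrn3, Tsr1, Utp20 and Sdad1.

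One control library carried much of the spread among the members. Ctrl 2 was the highest or the lowest of the 6 libraries for 34 of the 50 members, or 68%, compared with 8 to 20 members for each of the other libraries. The direction tended to go with transcript length, taken here as the effective length implied by the authors' counts and FPKM. This length ran from 431 bases for Nop10 to 17672 bases for Mdn1. Mdn1 was at 182, 87.4 and 191 CPM in Ctrl and 176, 188 and 183 CPM in cKO, so that Ctrl 2 held less than any other library by a wide margin. Nle1 had a length of 1354 bases and a GC content of 59.7%. It was at 9.03, 17.5 and 8.22 CPM in Ctrl and 10.6, 11.0 and 8.37 CPM in cKO. Ctrl 2 was above the rest. Mdn1 and Nle1 are named here after their values were seen. Among the 25 shortest members, Ctrl 2 exceeded the mean of the other 2 Ctrl libraries for 19, and among the 25 longest for 10.

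Across the 50 members, the deviation of a library from its group mean was related to length with a Spearman rho of -0.64 in Ctrl 2, 0.52 in Ctrl 1 and 0.51 in Ctrl 3, and of -0.21, 0.14 and 0.07 in the 3 cKO libraries. These are descriptions across genes of 1 library each, and the 3 deviations of a group sum to 0, so those of Ctrl 1 and Ctrl 3 are not independent of Ctrl 2. Over all 13570 genes the value in Ctrl 2 was -0.67, so the pattern was not confined to the members. The median coefficient of variation of a member was 10.7% in Ctrl and 5.97% in cKO, and the SD was larger in Ctrl for 38 of 50 members. Without Ctrl 2 the median log2 fold change of the members was -0.01, and Bop1 and Nle1, lower with all libraries, had log2 fold changes of 0.04 and 0.21, while Mdn1 was at -0.03. Of the 28 members with a log2 fold change of 0.1 or more in size, 22 moved by over 1.5 times or changed sign when Ctrl 2 was left out, among them Ubtf (-0.14), Ddx21 (0.13), Utp20 (0.06), Sdad1 (0.07) and Rrs1 (0.04).

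**Figure D4:**
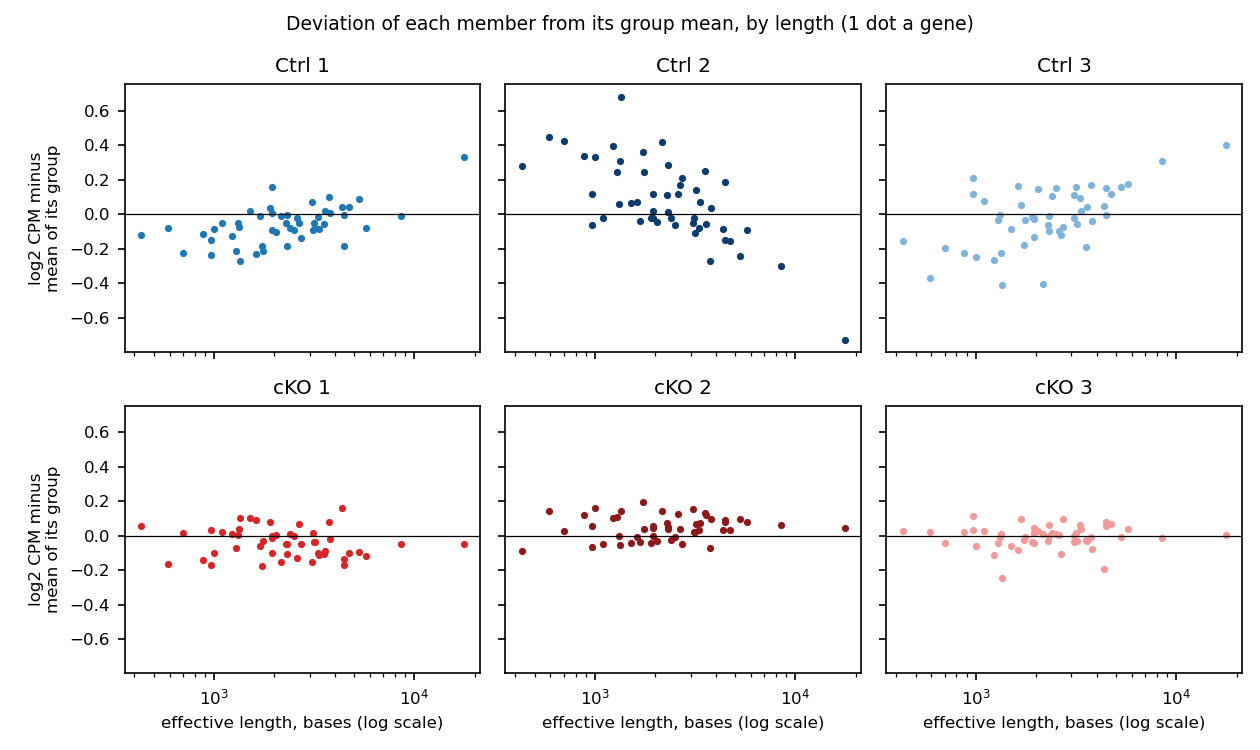
Log2 CPM of each member minus the mean of its group (vertical axes) against effective length in bases (horizontal axes, log scale), 1 panel a library and 1 dot a gene. Short members tend to lie above 0 and long members below 0 in Ctrl 2, with exceptions on both sides. The reverse tendency holds in Ctrl 1 and Ctrl 3, and the dots of the cKO panels lie closer to 0.

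When the relation to length and GC content was removed from every library, the median log2 fold change of the members was -0.06 and still none passed an adjusted p of 0.05, beside 1.36% of all genes. At an unadjusted p under 0.05, 7 members were lower in cKO, beside 7.1% of all genes, and 2 were higher, beside 6.43%. The 7 were Nop14, Polr1a, Polr1c, Rrp9, Ubtf, Utp3 and Wdr43, and the 2 were Ltv1 and Nop10. The largest of these was Polr1a with a log2 fold change of -0.26 (95% interval -0.43 to -0.09, adjusted p = 0.151). The lower list held 3 of the 6 members of the polymerase I group, with Rrn3 at 0.14, and only 1 of them, Polr1a, when Ctrl 2 was also left out of the corrected fit.

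Several members carry snoRNA genes inside their introns. In the GENCODE M21 annotation 8 members had snoRNAs within their bounds, namely Taf1d with 8, Nop56 with 5, Nop58 with 4, Gnl3, Ncl and Wdr43 with 3 each, Tsr1 with 2 and Dkc1 with 1. Their log2 fold changes ran from -0.12 to 0.19 with a median of -0.01, beside a median of -0.05 for the other 42 members. After the length and GC correction these medians were -0.07 and -0.06, and the difference was not tested. The 95% intervals of all 8 included 0.

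The products assembled by these factors were compared as a reference. The 77 cytosolic ribosomal protein genes had a median log2 fold change of -0.59, and 67 of 77 had an unadjusted p under 0.05 on the lower side, 2 of them with an adjusted p under 0.05, beside 1 of 50 and 0 of 50 for the members and 3.49% and 0.0737% of all genes. Their summed level was 22883 to 35646 CPM in Ctrl, with the highest value in Ctrl 2, and 17567 to 18197 CPM in cKO. The summed level of the 50 members was 3628, 3813 and 3879.7 CPM in Ctrl and 3601, 3847 and 3762 CPM in cKO, with overlapping groups. The median of the ribosomal protein genes was -0.44 after the length and GC correction, where 36 of 77 had an adjusted p under 0.05 beside 1.36% of all genes, and -0.35 without Ctrl 2. The difference between the lists was not tested, and ribosomal protein mRNAs are short, a property that moved with Ctrl 2.

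**Figure D5:**
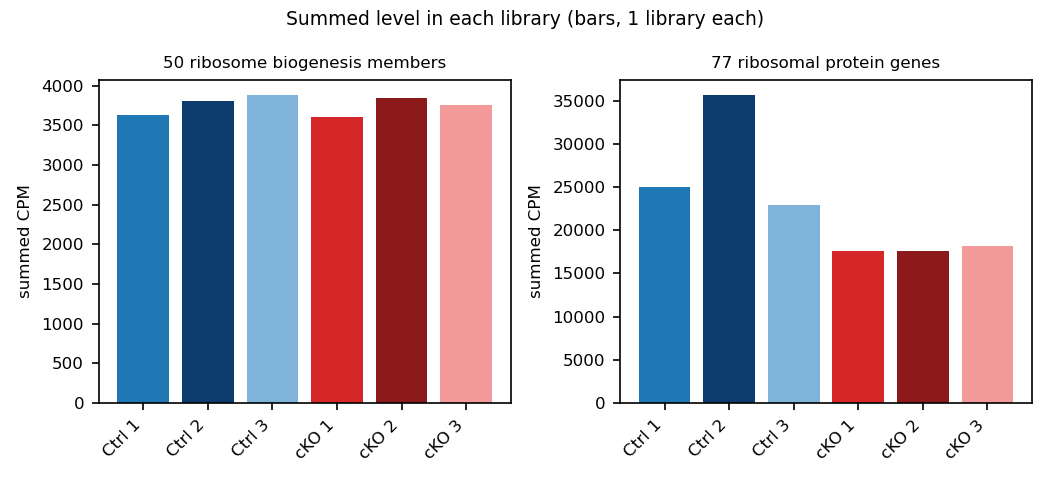
Summed CPM (vertical axes, starting at 0) of the 50 members (left) and of the 77 cytosolic ribosomal protein genes (right) in each of the 6 libraries, 1 bar a library. The bars of the members stay between 3601 and 3879.7 CPM, and those of the ribosomal protein genes are lower in the 3 cKO libraries than in any Ctrl library.

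A wider list of 125 symbols of further ribosome biogenesis genes was examined in the same way. It included second names of some genes, and the 120 symbols found in the expression table were all tested. No gene of it had an adjusted p under 0.05, beside 0.0737% of all genes. At an unadjusted p under 0.05, 0 of 120 were higher and 8 of 120 lower, beside 3.14% and 3.49% of all genes. The log2 fold change was above 0 for 31 and below 0 for 89, with a median of -0.07 that was 0.01 without Ctrl 2. The smallest p belonged to Nsa2, a factor of pre-60S maturation, with a log2 fold change of -0.45 (adjusted p = 0.250), and to Nop53, a nucleolar factor of the same pathway, at -0.72 (adjusted p = 0.345). With the length and GC correction 2 of the 120 had an adjusted p under 0.05, beside 1.36% of all genes, and the median was -0.04. Of 10 genes of the Myc network, 0 were called, beside 0.0737% of all genes. At an unadjusted p under 0.05, 0 were higher and 0 lower, beside 3.14% and 3.49%. With so few genes these counts are near the shares and are no result about the list. The log2 fold change was above 0 for 2 and below 0 for 8, with a median of -0.10, and -0.05 with the correction. Of 14 targets of p53, the factor that responds when ribosome assembly is disturbed, 0 were called, beside 0.0737% of all genes. At an unadjusted p under 0.05, 0 were higher, beside 3.14%, and 2 were lower, beside 3.49%. With the length and GC correction 1 of the 14 had an adjusted p under 0.05, beside 1.36% of all genes. The median log2 fold change of the 14 was -0.12, and -0.01 with the correction.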

How the data were processed

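Cortical RNA of 3 Ctrl and 3 cKO embryos was sequenced by the authors, and samples were grouped by their titles. Per the labels, RNA was taken with Trizol and libraries were made with a dual-mode mRNA kit. The submitters' processing notes name HISAT2 2.2.1, Bowtie2 2.4.5, RSEM 1.3.1 and GRCm38 (mm10). Annotation and strandedness are not given in the sources used here, so reads of overlapping genes on opposite strands cannot be told apart, which touches Nop56, Rrp9, Dkc1, Nhp2, Bop1 and other members that share bounds with a coding gene. The authors deposited an estimated count per gene and library with no normalization between libraries, of which 89.4% were whole numbers. The TPM deposited by the authors is scaled by transcript length to a fixed total, and the FPKM deposited by the authors is scaled by length and library total. The table's columns of the authors' own comparison (fold changes and p-values) were not used.

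Estimated counts were rounded, filtered with the default of filterByExpr, scaled by TMM and compared with edgeR 4.0.16 (glmQLFit, glmQLFTest, Benjamini-Hochberg over 13570 genes) in R 4.3.3. CPM uses TMM-scaled totals, and intervals are 95% intervals of the fitted log2 fold change. The common biological coefficient of variation was 0.147. The p-values measure the spread between these samples. The sources describe the controls as littermates and the profiles as coming from 3 independent replicate experiments. They do not say which cKO and Ctrl libraries share a litter or an experiment. The pipeline was tested on simulated data of the comparison of cKO with Ctrl (13583 genes), where it found 42.0% of 1.5-fold, 96.4% of 2-fold and 100% of 4-fold changes with 8 false calls. The simulation gave every gene the same coefficient of variation and changed only genes above a floor of counts. It held no deviation of Ctrl 2 with length, so these rates check the pipeline and are not the power of the real comparison.

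Alternatives were DESeq2 1.42.0, RLE factors, TMM without ribosomal protein, X and Y genes, other filters, a replicate block, a length and GC correction (per library, mgcv 1.9.3), limma 3.58.1 on log2(TPM + 1), and each library left out. All members were named. Values in every library were given for members with an adjusted p under 0.05, the 6 with the smallest p in each direction, the 5 highest in TPM, and Polr1a, Ubtf, Ncl, Npm1, Fbl, Dkc1, Nop2 and Pes1. The members and lists were chosen with earlier results of these data known. Promoters came from RefSeq and gene bounds and snoRNAs from GENCODE M21, both on GRCm38. Figures were drawn with matplotlib 3.10.9.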

Additional observations from a re-analysis of the deposited data

How the results depend on the processing

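The count of members with an adjusted p under 0.05 was 0 in every alternative, and the smallest adjusted p of a member in any of them was 0.141 (Polr1a, length and GC correction with the replicate block). Of 850 values (50 members in 17 alternatives), 81 had the other sign from the reported one, and 22 members kept their direction throughout, 12 lower and 10 higher. No member was called in any fit, and the cause of the changes of sign was not tested.

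The share of all genes of the same kind stands in brackets after each count. Members lower with an unadjusted p under 0.05 numbered 1 as reported (3.49%), 2 with no filter (3.42%) and 3 with the replicate block (3.64%). They numbered 7 with the length and GC correction (7.1%), 7 with that correction and the block (7.7%) and 0 on TPM (1.5%). With 1 library left out they numbered 0 to 8. There were 8 without Ctrl 3 (7.97%), 3 without Ctrl 2 (6.55%) and 0 without any 1 of the cKO libraries (1.89% to 2.23%). With the correction and Ctrl 2 left out there were 4 (7.82%). Members higher numbered 0 as reported (3.14%), 2 with the correction (6.43%), 2 with the correction and the block (7.27%) and 5 on TPM (8.83%). With 1 library left out they numbered 0 to 2, being 2 without Ctrl 2 (5.51%) and 2 without Ctrl 3 (5.98%). With the correction and Ctrl 2 left out there were 2 (7.24%). Members whose groups did not overlap numbered 5 as reported (14.3%), 9 with the correction (21%), 9 with the correction and the block (21%) and 9 on TPM (21.6%). With 1 library left out, where fewer libraries make overlap less likely, they numbered 7 to 17 (18.9% to 33.1%). There were 17 without Ctrl 3 (33.1%), and 10 with the correction and Ctrl 2 left out (33.6%). Intervals within 2-fold numbered 47 to 50 with 1 library left out (from 11562 of 13720 genes without Ctrl 1 to 12408 of 13687 without Ctrl 2). On TPM they numbered 49 (13074 of 13570 genes). The last fits with Ctrl 2 left out, TPM with equal library medians and the count of intervals were added after seeing the data.

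The median log2 fold change of the members was 0.11 on TPM, where the median of all genes was 0.14, so relative to that shift it was on the lower side as reported, and it was -0.05 with library medians set equal. It was -0.08 to -0.01 with 1 library left out and 0.0008 with the correction and Ctrl 2 left out.

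Same-numbered libraries deviated from their group means with correlations of 0.0884, 0.0615 and 0.230, a mean of 0.127. The mean between different-numbered libraries was -0.0632. No label ties the numbers to a shared litter or batch, so they were not taken to pair the samples. Whether same-numbered libraries share a litter or batch was not tested. With the replicate block 3 members were lower at an unadjusted p under 0.05 (Imp3, Polr1c and Rrp9), beside 3.64% of all genes.

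On TPM the log2 fold change turned for Ddx10 (0.12), Dkc1 (0.071), Ebna1bp2 (0.13), Gar1 (0.11), Gnl2 (0.11), Gnl3 (0.12), Imp4 (0.11), Mphosph10 (0.14), Nip7 (0.066), Nop16 (0.18), Nop56 (0.058), Pes1 (0.010), Polr1b (0.069), Rrs1 (0.0022), Utp15 (0.11), Utp18 (0.13), Utp4 (0.011) and Wdr43 (0.027), all below the shift of all genes except Mphosph10 and Nop16. With equal medians it turned for Nop16 (0.019), Nop58 (-0.0061), Npm1 (-0.0029) and Wdr12 (-0.11). With the length and GC correction it turned for Gar1 (0.082), Ncl (-0.11), Nop58 (-0.19) and Wdr12 (-0.16), and with the block added for Gar1 (0.093), Ncl (-0.094), Nop58 (-0.16) and Wdr12 (-0.13). With the correction and Ctrl 2 left out it turned for Ebna1bp2 (0.063), Nip7 (0.029), Nle1 (0.14), Nop16 (0.014), Nop56 (0.038), Rrs1 (0.021) and Utp18 (0.0054). With no filter it turned for Nop58 (-0.0079), Npm1 (-0.012) and Taf1d (-0.0069), with RLE factors for Npm1 (-0.00037) and with DESeq2 for Npm1 (-0.00034).

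With 1 library left out, the range of the log2 fold change crossed 0 for Bop1 (-0.37 to 0.038), Ddx10 (-0.060 to 0.043), Dkc1 (-0.12 to 0.00022), Ebna1bp2 (-0.083 to 0.067), Gar1 (-0.16 to 0.034), Gnl2 (-0.097 to 0.028), Gnl3 (-0.14 to 0.049), Imp4 (-0.11 to 0.039), Mdn1 (-0.032 to 0.44), Mphosph10 (-0.040 to 0.021), Nip7 (-0.15 to 0.028), Nle1 (-0.41 to 0.21), Nolc1 (-0.015 to 0.083), Nop16 (-0.21 to 0.026), Nop56 (-0.19 to 0.050), Nop58 (-0.043 to 0.039), Npm1 (-0.023 to 0.041), Rrp12 (-0.026 to 0.16), Rrs1 (-0.27 to 0.041), Taf1d (-0.064 to 0.12), Utp15 (-0.16 to 0.046), Utp18 (-0.039 to 0.010) and Wdr12 (-0.019 to 0.086). The lowest estimated count of a member in a library was 120, and precision was limited mainly by the spread between 3 libraries a group.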
